A study of Homo sapiens with 7 samples.

Results

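The genes described here encode short structured RNAs of the nucleus: the small nuclear RNAs (symbols starting with RNU), the box C/D small nucleolar RNAs (SNORD), the box H/ACA small nucleolar RNAs (SNORA) and the small Cajal body RNAs (SCARNA). A gene was taken where a transcript cluster, the array's unit for a gene, carried a single symbol of these 4 kinds in the platform annotation, and the host genes that contain many of them were left out. Of 17958 genes on the array with a single-symbol cluster, 219 met the rule: 15 RNU, 121 SNORD, 67 SNORA and 16 SCARNA genes. They were measured through 238 clusters, and where a gene had several (8 of the 219) the brightest was used. Another 89 clusters named such an RNA together with other symbols and were not used, so the set is not every snRNA or snoRNA on the array. RefSeq types 12 of the 15 RNU genes as small nuclear RNA, RNU105B and RNU105C as small nucleolar RNA, and RNU6-501P as a pseudogene.

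SKOV3 is an established line of ovarian carcinoma cells, in which lentivirus had been used to make stable clones kept under puromycin. RNA of these cells was measured on 7 Affymetrix Human Gene 1.1 ST arrays: 2 of scramble control clones, 3 of clones labelled CtBP1 knockdown and 2 of CtBP2 knockdown clones. CtBP1 and CtBP2 are related transcriptional co-repressors, and the study asked which genes each of them controls. Every group therefore carries an integrated lentivirus and drug selection, and the arrays are of clones, so differences between clones cannot be told apart from knockdown. The sample titles do not say whether arrays of a group share a clone, and nothing in the labels says that cultures of a group were grown apart. A p-value therefore weighs the spread among the arrays, which may lie between clones or be technical. CTBP2 read 4.64 and 4.22 in CtBP2 knockdown and 5.70 to 6.31 elsewhere. CTBP1 had signals of 5.11 to 6.13 on the 3 arrays labelled CtBP1 knockdown and of 5.69 and 6.37 on the scramble arrays, so this signal does not separate them from the controls.

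Small nuclear RNAs are the RNA parts of the spliceosome. U1, U2, U4, U5 and U6 serve the major spliceosome, in which U4 and U5 meet U6 in the tri-snRNP, and U11, U12, U4atac and U6atac serve the minor one. Box C/D RNAs guide 2′-O-methylation and box H/ACA RNAs guide pseudouridylation, mostly of ribosomal RNA, while the small Cajal body RNAs guide the same modifications on the small nuclear RNAs. The major small nuclear RNAs are transcribed from their own promoters, whereas most human small nucleolar and Cajal body RNAs are released from introns of host genes, many of which encode ribosomal proteins or non-coding transcripts such as GAS5.

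Scramble control 1 stood apart from the rest, with correlations across all genes, which are not independent, of 0.926 to 0.941 to the other arrays and of 0.971 to 0.993 among those 6. Scramble control 1 also had the narrowest spread of signals over all genes, with 2.20 log2 units between the quartiles, beside 2.85 to 3.15 on the other 6. It was also the array on which the small RNAs were most often brightest, with the highest of the 7 signals for 93 of the 219 genes, followed by CtBP2 knockdown 2 with 59. Over all 17958 genes scramble control 1 was also the most often brightest array, for 5658, and CtBP2 knockdown 2 was the brightest for 1829. Epithelial markers (KRT7, KRT8, KRT18, KRT19, EPCAM, ERBB2) and PAX8 read 4.59 or more on every array, MUC16 read 2.92 to 5.86 and WT1 1.92 to 2.21. The summed linear signal of these 9 was 1166 and 1749 in scramble, 1664 to 2004 in the labelled CtBP1 knockdown and 2787 and 2046 in CtBP2 knockdown, highest in the last without overlap, and the part of this in the results was not tested. KRT7 alone read 5.65 and 7.59 in scramble and 9.64 and 8.67 in CtBP2 knockdown. The 3 leukocyte markers measured lay between 1.50 and 2.31, and their summed linear signal was 10.3 to 11.2 in the scramble, 10.2 to 11.9 in the labelled CtBP1 knockdown and 10.5 on both CtBP2 knockdown arrays. The 5 fibroblast and endothelial markers summed to 22.3 and 32.4, 22.9 to 25.2, and 22.9 and 23.2, with the highest value on scramble control 1, and their part in the results was not tested. The 3 neuron markers, of interest for the imprinted snoRNAs, lay between 1.88 and 4.12 and summed to 29.0 and 25.4 in scramble, 15.3 to 22.8 in the labelled CtBP1 knockdown and 15.7 and 19.4 in CtBP2 knockdown, which was not tested either. In RNA from a whole culture, fewer cells of a type and less RNA per cell cannot be told apart.

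In CtBP2 knockdown the 4 classes did not sit at one level against scramble control. The median difference was 0.78 on the log2 scale for the RNU genes, 0.23 for SCARNA, 0.12 for SNORA and -0.09 for SNORD, beside -0.02 over all 17958 genes. The signal of both CtBP2 knockdown arrays lay above both scramble arrays for 9 of 15 RNU, 6 of 16 SCARNA, 21 of 67 SNORA and 30 of 121 SNORD genes, beside 19.3% of all genes. It lay below both for 1 RNU, 1 SCARNA, 9 SNORA and 36 SNORD genes, beside 21.7% of all genes. At an unadjusted p under 0.05 in limma's fit over all genes, 29 of the 219 genes were higher and 2 lower, that is 6 RNU, 2 SCARNA, 8 SNORA and 13 SNORD higher with 1 RNU and 1 SNORD lower, beside 7.19% and 2.98% of all genes. After Benjamini-Hochberg adjustment over all genes 1 member was called, RNU4-1, and it was the sole gene of the array past 0.05 (0.00557% of all genes). These counts rest on the controls. With 1 array left out the class medians ran from 0.56 to 1.32 for RNU and from 0.05 to 0.40 for SCARNA. They ran from -0.06 to 0.38 for SNORA and from -0.20 to 0.14 for SNORD. The fit without scramble control 2 called 22.0% of all genes and put 39.7% under an unadjusted 0.05, so the members' 45 and 80 of 219 were no larger shares than those of the whole array. The SNORD median turned to 0.05 when arrays were centred on their medians and to 0.14 without scramble control 1, and the SNORA median turned to -0.06 without scramble control 2.

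The SNORD class was a mixture. Its 50 genes from the imprinted SNORD113, SNORD114, SNORD115 and SNORD116 clusters had a median of -0.36, with 0 above and 30 below both controls. The other 71 SNORD genes had a median of 0.24, with 30 above and 6 below. All 30 SNORD genes above both controls thus lay outside the imprinted clusters, beside 19.3% above and 21.7% below over all genes. The imprinted genes had array medians of 1.26 to 2.09, and the dimmest of 4 bands of mean signal ends at 2.12. In that band 2.52% of all genes lay above both controls and 43.3% below. The part of dimness in this split was not tested. The RNU class was also split, by a grouping of U4 and U5 that was not planned beforehand. The 7 genes for U4 and U5 had a median of 1.70 with 7 of 7 above both controls. The other 8, which include RNU4ATAC, had a median of 0.03 with 2 above (RNU2-1 and RNU11) and 1 below.

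**Figure D1:**
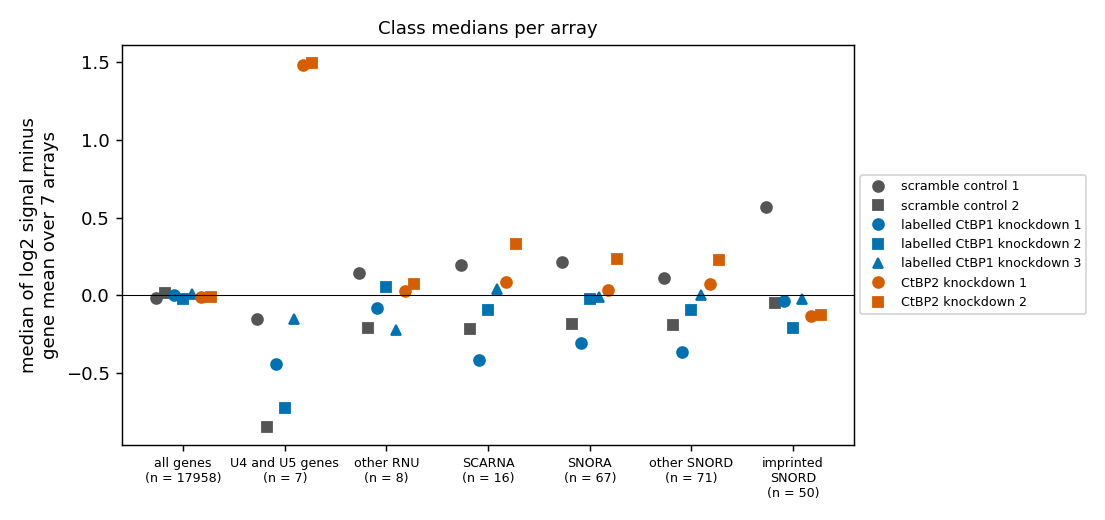
Each point is the median, over the genes of a class, of the log2 signal minus each gene's mean over the 7 arrays (vertical axis, log2 units), by class and array. The U4 and U5 genes sit at 1.48 and 1.49 on the CtBP2 knockdown arrays and at -0.84 to -0.15 on the other 5, while the imprinted SNORD genes are highest on scramble control 1 (0.57).

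RNU4-1 encodes a U4 small nuclear RNA, the partner that holds U6 inactive until the spliceosome is activated. Its signal was 2.52 and 2.79 in scramble, 3.81, 3.53 and 4.09 in the labelled CtBP1 knockdown and 6.35 and 6.66 in CtBP2 knockdown, the order used for every gene here. The groups did not overlap in any of the 3 comparisons, and the labelled CtBP1 knockdown arrays lay between the other groups. In CtBP2 knockdown it rose by 3.85 ± 0.23 (SE of the limma fit, 2 arrays against 2), a 14.4-fold difference on the signal scale, with an adjusted p of 0.0491. The call was lost in 12 of 18 alternative fits, with adjusted p between 0.00650 and 0.832, including the fits without each array other than scramble control 2, while the difference itself stayed between 3.69 and 4.01. The setting with updated symbols, counted among the 18, repeats the reported fit and is no separate check. Against scramble, the labelled CtBP1 knockdown arrays were higher by 1.16 ± 0.21 (limma adjusted p = 0.734), and CtBP2 knockdown exceeded them by 2.69 ± 0.21 (limma adjusted p = 0.129), so neither passed.

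RNU4-2, the second U4 gene, had signals of 1.96 and 2.20, then 2.36, 1.90 and 2.98, then 4.58 and 4.92 in the same order of groups. Both CtBP2 knockdown arrays were above all 5 others, and scramble and the labelled CtBP1 knockdown overlapped. The difference from scramble was 2.67 ± 0.35, or 6.38-fold (limma adjusted p = 0.180). As nearly identical copies, the U4 genes may share probes, and the sources used here do not settle how far their signals are independent.

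U5 contacts the exon ends during splicing and is encoded by several variant genes, 5 of which were measured. RNU5B-1 read 3.53 and 2.67 in scramble, 2.62, 2.86 and 2.46 in the labelled CtBP1 knockdown and 4.86 and 4.65 in CtBP2 knockdown, a difference of 1.65 ± 0.30 from scramble (limma adjusted p = 0.240). RNU5D-1 read 5.29 and 4.22, then 4.99, 3.79 and 6.80, then 7.37 and 8.25, a difference of 3.05 ± 0.97. Array 3 of those labelled CtBP1 knockdown was well above the other 2 of that group, and the CtBP2 knockdown arrays were still the highest. RNU5F-1 read 2.31 and 1.40, then 2.49, 1.63 and 2.31, then 3.15 and 3.96 (1.70 ± 0.45), and RNU5A-1 read 4.59 and 3.41, then 4.14, 3.59 and 3.75, then 4.86 and 5.43 (1.15 ± 0.42). RNU5E-1 read 9.37 and 8.39, then 8.64, 8.60 and 8.96, then 9.50 and 9.64 (0.69 ± 0.33). In each of the 5 the CtBP2 knockdown arrays exceeded every other array, but for RNU5E-1 and RNU5A-1 scramble control 1 lay closer to them than to scramble control 2 or to the group labelled CtBP1 knockdown. The U4 and U5 genes had a median difference of 2.15 without scramble control 1 and 1.24 without scramble control 2, with 7 of 7 higher in both fits. The U5 variants may also share probes, so the 7 genes may not be separate measurements.

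**Figure D2:**
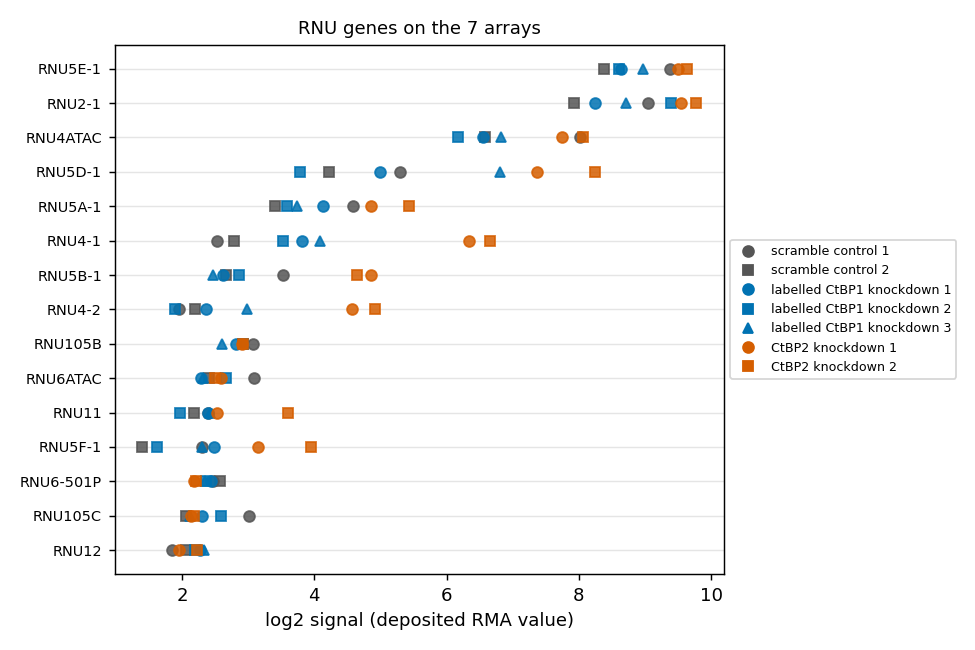
Log2 signal (horizontal axis) of the 15 RNU genes, 1 row a gene, with 1 point for each of the 7 arrays and genes ordered by mean signal. The orange CtBP2 knockdown points lie to the right of all others for RNU4-1 (6.35 and 6.66) and for the other U4 and U5 genes, and among the remaining points for RNU12, RNU6ATAC and RNU105B.

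U2 recognises the branch point. RNU2-1 was measured by 12 clusters, and its brightest read 9.05 and 7.92 in scramble, 8.24, 9.39 and 8.72 in the labelled CtBP1 knockdown and 9.54 and 9.77 in CtBP2 knockdown. CtBP2 knockdown was the highest group, close above the second array labelled CtBP1 knockdown, and differed from scramble by 1.17 ± 0.48 (limma adjusted p = 0.494). All 12 clusters, which measure copies of the same RNA and are not replicates, were higher in CtBP2 knockdown, by 1.12 to 1.84.

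The minor spliceosome RNAs were mixed. RNU4ATAC, the U4 counterpart of the minor spliceosome, read 8.03 and 6.59 in scramble, 6.56, 6.18 and 6.83 in the labelled CtBP1 knockdown and 7.75 and 8.07 in CtBP2 knockdown. Scramble control 1 was as bright as CtBP2 knockdown, and the groups overlapped (0.60 ± 0.48 against scramble), whereas CtBP2 knockdown lay above all 3 arrays labelled CtBP1 knockdown by 1.39 ± 0.43 (limma adjusted p = 0.497). Without scramble control 2 the first of these differences was -0.11. RNU11 read 2.40 and 2.18, then 2.39, 1.97 and 2.42, then 2.52 and 3.60, with both CtBP2 knockdown arrays above the other 5 (0.78 ± 0.37 against scramble), array 1 narrowly and array 2 by far. RNU12 read 1.86 and 2.06, then 2.28, 2.20 and 2.34, then 1.95 and 2.24, and was above both controls on the arrays labelled CtBP1 knockdown (0.31 ± 0.14). RNU6ATAC differed from scramble by -0.19 ± 0.25 in CtBP2 knockdown, RNU105B by -0.08 ± 0.15 and RNU105C by -0.38 ± 0.32, each with overlapping groups, and the direction of these 3 turned in at least 1 alternative fit. The pseudogene RNU6-501P read 2.47 and 2.57, then 2.43, 2.36 and 2.35, then 2.19 and 2.22, and was the single RNU gene below both controls in CtBP2 knockdown (-0.32 ± 0.11).

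Among the 16 SCARNA genes, which guide modification of the small nuclear RNAs above, SCARNA9 gave the best separated values. It read 4.84 and 4.70 in scramble, 4.45, 4.55 and 4.53 in the labelled CtBP1 knockdown and 5.51 and 5.62 in CtBP2 knockdown. The 3 groups did not overlap, with CtBP2 knockdown highest and the labelled CtBP1 knockdown lowest. CtBP2 knockdown differed from scramble by 0.79 ± 0.12 (limma adjusted p = 0.199) and from the labelled CtBP1 knockdown by 1.05 ± 0.11 (limma adjusted p = 0.129), and the labelled CtBP1 knockdown from scramble by -0.26 ± 0.11. A dimmer second cluster of SCARNA9 was higher in CtBP2 knockdown by 0.55.

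SCARNA5 and SCARNA6 both lie within ATG16L1. SCARNA6 read 3.54 and 2.64 in scramble, 1.51, 2.77 and 2.16 in the labelled CtBP1 knockdown and 3.73 and 4.41 in CtBP2 knockdown, and SCARNA5 read 2.94 and 3.08, then 2.49, 2.88 and 3.10, then 3.36 and 3.68. Both were above all other arrays on the CtBP2 knockdown arrays, by 0.98 ± 0.50 and 0.52 ± 0.23 against scramble, while ATG16L1 itself differed by 0.06 ± 0.27. SCARNA17 (0.60 ± 0.24), SCARNA7 (0.54 ± 0.50) and SCARNA23 (0.32 ± 0.23) were also above both controls, although the dimmer of the SCARNA17 clusters did not differ (-0.003). SCARNA10 read 5.63 and 4.09, then 3.68, 3.95 and 3.79, then 5.18 and 5.04: it lay below both controls in the labelled CtBP1 knockdown (-1.05 ± 0.43) and above all 3 of those arrays in CtBP2 knockdown (1.30 ± 0.43), and the CtBP2 knockdown arrays lay between the 2 controls. SCARNA4 read 4.92 and 3.55, then 2.73, 4.15 and 3.81, then 3.12 and 3.46, and was the single SCARNA gene below both controls in CtBP2 knockdown (-0.95 ± 0.60). The other 8 differed from scramble by -0.44 to 0.49 in CtBP2 knockdown with overlapping groups.

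The reference holds no sequence of the snRNAs or snoRNAs as such, but 2 members overlap an annotated microRNA hairpin, which shows the 3′ part of an H/ACA-type RNA. Both are given 5′ to 3′ from RefSeq (GRCh38.p14), with the ACA box in capitals; it ends 3 bases before the end of the RNA. The first is the MIR664B hairpin within SNORA36A at chrX:154768596-154768656 (plus strand), and the second is the part of the MIR6516 hairpin within SCARNA16 at chr17:77089417-77089493 (plus strand), whose annotated hairpin runs 4 bases past the end of the SCARNA.
SNORA36A: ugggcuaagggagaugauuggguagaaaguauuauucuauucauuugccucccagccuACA
SCARNA16: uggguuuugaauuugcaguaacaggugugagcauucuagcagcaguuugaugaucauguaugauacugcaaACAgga
SNORA36A lies within DKC1, the gene of the pseudouridine synthase that H/ACA RNAs guide, and read 2.01 and 3.02 in scramble, 2.71, 3.02 and 3.77 in the labelled CtBP1 knockdown and 3.42 and 3.21 in CtBP2 knockdown. The CtBP2 knockdown arrays were above both controls but not above array 3 of the labelled CtBP1 knockdown. SCARNA16 read 4.84 and 3.76, then 3.37, 4.59 and 3.88, then 4.02 and 4.52, and its groups overlapped in every comparison.

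Among the 67 SNORA genes, SNORA24, SNORA14A, SNORA65 and SNORA7B had the smallest p among those above both controls in CtBP2 knockdown. SNORA24, within SNHG8, read 3.42 and 3.14 in scramble, 2.57, 4.26 and 3.69 in the labelled CtBP1 knockdown and 5.59 and 6.45 in CtBP2 knockdown (2.74 ± 0.57, limma adjusted p = 0.287). SNORA65, within the ribosomal protein gene RPL12, read 2.52 and 2.18, then 1.78, 2.13 and 2.46, then 3.31 and 4.07 (1.34 ± 0.33), and SNORA7B, within RPL32P3, read 3.72 and 3.63, then 2.91, 3.27 and 3.69, then 4.52 and 4.69 (0.93 ± 0.25). In these 3 both CtBP2 knockdown arrays exceeded all 5 others. SNORA14A, within POR, behaved otherwise: it read 5.002 and 4.75 in scramble, 6.37, 5.63 and 6.66 in the labelled CtBP1 knockdown and 6.91 and 6.48 in CtBP2 knockdown. Both knockdown groups were above both controls, by 1.35 ± 0.32 and 1.82 ± 0.35 (limma adjusted p = 0.734 and 0.255), and overlapped each other.

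On the other side, SNORA3B read 5.42 and 4.53 in scramble, 4.72, 4.77 and 4.92 in the labelled CtBP1 knockdown and 4.16 and 4.45 in CtBP2 knockdown, below every other array (-0.67 ± 0.30 against scramble). SNORA5B (-0.46 ± 0.19), SNORA51 (-0.44 ± 0.20) and SNORA58 (-0.27 ± 0.12) were also below both controls. SNORA5A and SNORA5B, which share the host TBRG4, lay on opposite sides: SNORA5A read 2.48 and 2.48, then 2.19, 2.03 and 2.36, then 2.85 and 3.09, above all other arrays in CtBP2 knockdown and below both controls in the labelled CtBP1 knockdown. SNORA23 read 10.33 and 9.19 in scramble and 8.07, 8.89 and 8.80 in the labelled CtBP1 knockdown (-1.17 ± 0.40), with 9.08 and 8.90 in CtBP2 knockdown, so scramble control 1 alone was far above the rest. SNORA62, within RPSA, read 2.07 and 1.49, then 3.52, 3.11 and 2.26, then 2.22 and 2.50, and was above both controls in both knockdown groups (1.18 ± 0.39 in the labelled CtBP1 knockdown).

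Several box C/D RNAs above both controls in CtBP2 knockdown came from a few host transcripts. GAS5 is a non-coding host whose introns hold 6 members, and all 6 had a positive difference from scramble, 5 of them with both CtBP2 knockdown arrays above both controls. SNORD44 read 2.50 and 3.20 in scramble, 2.37, 3.14 and 3.78 in the labelled CtBP1 knockdown and 4.95 and 5.60 in CtBP2 knockdown (2.43 ± 0.50, limma adjusted p = 0.287). SNORD79 read 3.46 and 3.49, then 3.09, 3.60 and 3.83, then 4.78 and 4.93 (1.38 ± 0.25, limma adjusted p = 0.239). In both the CtBP2 knockdown arrays exceeded all others, as they did for SNORD78, SNORD75 and, narrowly, SNORD77. The exception, SNORD74, read 8.49 and 6.71, then 6.22, 7.66 and 7.19, then 7.88 and 8.13, with scramble control 1 the brightest. The 6 had a median difference of 0.64 in CtBP2 knockdown and 0.07 in the labelled CtBP1 knockdown.

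RPL13A, a ribosomal protein gene, holds 4 members with a median difference of 1.49 in CtBP2 knockdown and -0.28 in the labelled CtBP1 knockdown. SNORD34 read 3.89 and 3.63, then 3.29, 3.65 and 4.28, then 5.60 and 6.51 (2.29 ± 0.41, limma adjusted p = 0.240), and SNORD35A read 4.77 and 4.48, then 4.28, 5.83 and 5.88, then 6.08 and 6.60. SNORD33 read 8.76 and 7.19, then 7.51, 6.99 and 7.82, then 9.01 and 9.45. For these 3 CtBP2 knockdown was the highest group, while SNORD32A was as bright on scramble control 1 (7.11) as on the CtBP2 knockdown arrays (6.77 and 7.08). Without scramble control 1 the medians in CtBP2 knockdown were 1.00 for the GAS5 members and 1.95 for the RPL13A members.

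SNHG5 and SNHG1 are further non-coding hosts. SNORD50A, within SNHG5, had the smallest p of the SNORD genes in CtBP2 knockdown and read 2.19 and 2.28, then 1.77, 2.35 and 2.94, then 4.55 and 4.33 (2.21 ± 0.36, limma adjusted p = 0.221), a 4.61-fold difference. Its neighbour SNORD50B in the same host read 2.19 and 2.27, then 2.22, 1.77 and 2.36, then 3.29 and 2.27, so it stood out on CtBP2 knockdown 1 alone. SNORD28, within SNHG1, read 6.36 and 6.39, then 5.93, 6.50 and 6.51, then 7.26 and 7.75, above all 5 other arrays. Of the 3 members in SNHG16, SNORD1C was above both controls, SNORD1B below both and SNORD1A overlapped, so members of 1 host did not always move together. Outside introns, SNORD13, which has its own promoter and takes part in small-subunit rRNA acetylation, read 10.63 and 9.31, then 9.77, 9.42 and 9.96, then 10.79 and 11.10 (0.97 ± 0.44), with scramble control 1 just below the CtBP2 knockdown arrays. GAS5, RPL13A, SNHG5, SNHG1 and SNHG16 themselves had no single-symbol cluster.

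**Figure D3:**
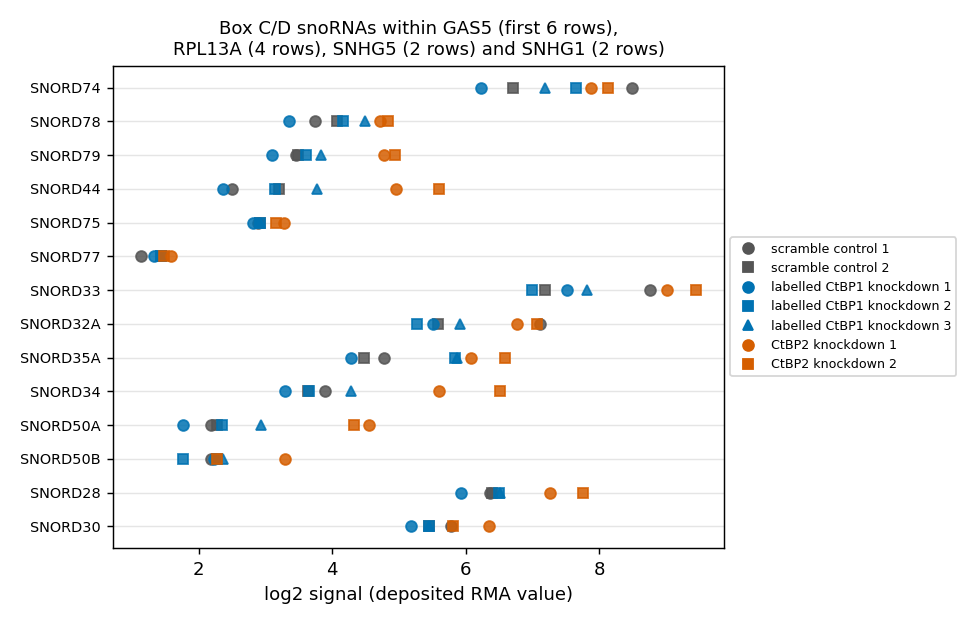
Log2 signal (horizontal axis) of 14 box C/D RNA genes grouped by host, 1 row a gene and 1 point for each of the 7 arrays. The CtBP2 knockdown points of SNORD44 (4.95 and 5.60), SNORD34 (5.60 and 6.51) and SNORD50A (4.55 and 4.33) lie to the right of every other array, whereas scramble control 1 is rightmost for SNORD74 (8.49) and SNORD32A (7.11).

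Many snoRNA hosts are genes with a 5′-terminal oligopyrimidine tract, which starts with C at the transcription start and links translation to growth signals. A run of C followed by at least 4 letters C or T, read on the gene's own strand from the annotated start, was found in 29 of 82 hosts present in the RefSeq promoter table (35.4%), beside 5.14% of its 27305 genes, and in 11 of the 12 hosts that encode ribosomal proteins. The windows below show the hosts of the best separated snoRNAs that were in the table, from 30 bases before to 30 bases from the annotated start, 5′ to 3′ (RefSeq, GRCh38.p14), with the tract in capitals. They are SNHG5 (chr6:85678704-85678763, minus strand), RPL13A (chr19:49487578-49487637, plus), RPL12 (chr9:127451377-127451436, minus), SNHG8 (chr4:118278732-118278791, plus), SNHG1 (chr11:62855856-62855915, minus), TBRG4 (chr7:45111668-45111727, minus) and GAS5 (chr1:173869016-173869075, minus).
SNHG5: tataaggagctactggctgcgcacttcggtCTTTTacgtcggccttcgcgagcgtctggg
RPL13A: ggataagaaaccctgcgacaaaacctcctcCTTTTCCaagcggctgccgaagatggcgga
RPL12: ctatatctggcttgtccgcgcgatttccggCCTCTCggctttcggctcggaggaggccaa
SNHG8: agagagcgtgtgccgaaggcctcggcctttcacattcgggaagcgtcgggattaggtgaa
SNHG1: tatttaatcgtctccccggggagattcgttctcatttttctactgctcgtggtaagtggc
TBRG4: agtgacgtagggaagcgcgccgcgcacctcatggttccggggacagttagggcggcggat
GAS5: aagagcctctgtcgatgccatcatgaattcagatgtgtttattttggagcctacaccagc
The tract was 5 bases in SNHG5, 7 in RPL13A and 6 in RPL12. For SNHG8, SNHG1, TBRG4 and GAS5 no such run begins at the annotated start, which says only that these letters are not at that base.

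The imprinted clusters gave the lower part of the SNORD class. SNORD115 and SNORD116 are repeated in SNHG14 on the chromosome 15 region linked to Prader-Willi syndrome, and SNORD113 and SNORD114 lie in MEG8. The 23 SNORD115 genes were dim, with medians of 1.06 to 1.51 on the 7 arrays, and all 23 had a negative difference from scramble in CtBP2 knockdown (median -0.30), 19 of them with both arrays below both controls, beside 21.7% of all genes and 43.3% of those in the dimmest of 4 bands of signal. With median centring the median was -0.15 and 5 of the 23 were positive. As repeated copies the SNORD115 genes may share probes, so the 23 are not separate measurements. SNORD115-10 is an example: it read 2.50 and 1.25 in scramble, 0.96, 0.94 and 1.19 in the labelled CtBP1 knockdown and 0.80 and 1.06 in CtBP2 knockdown (-0.94 ± 0.39). The gap came mainly from scramble control 1, and without that array its difference was -0.32 and the median of the 23 genes -0.16. SNORD115-38 (-0.71 ± 0.31), SNORD113-3 (-0.58 ± 0.24) and SNORD116-10 (-0.43 ± 0.17) were the other imprinted genes with the smallest p. Dim genes as a whole lay on the same side, as the account by signal level shows.

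SNORD116 set apart scramble control 1 from every other array. For 17 of its 21 genes that array was the brightest. SNORD116-15 read 10.52 on scramble control 1 and 7.58 on scramble control 2, with 8.65, 7.42 and 8.97 in the labelled CtBP1 knockdown and 8.52 and 8.89 in CtBP2 knockdown, and SNORD116-23 read 7.25 and 3.42, then 4.43, 3.54 and 4.31, then 4.04 and 4.44. SNORD116-24 read 9.16 and 6.03, then 6.90, 5.47 and 7.39, then 6.60 and 7.42. In each the second control lay among or below the knockdown arrays. The 21 genes had a median difference of -0.39 in CtBP2 knockdown and -0.65 in the labelled CtBP1 knockdown, and without scramble control 1 these medians were 0.18 and 0.09, so the sign of both rested on that array. The SNORD116 copies are nearly identical and may share probes, so they are not separate measurements.

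**Figure D4:**
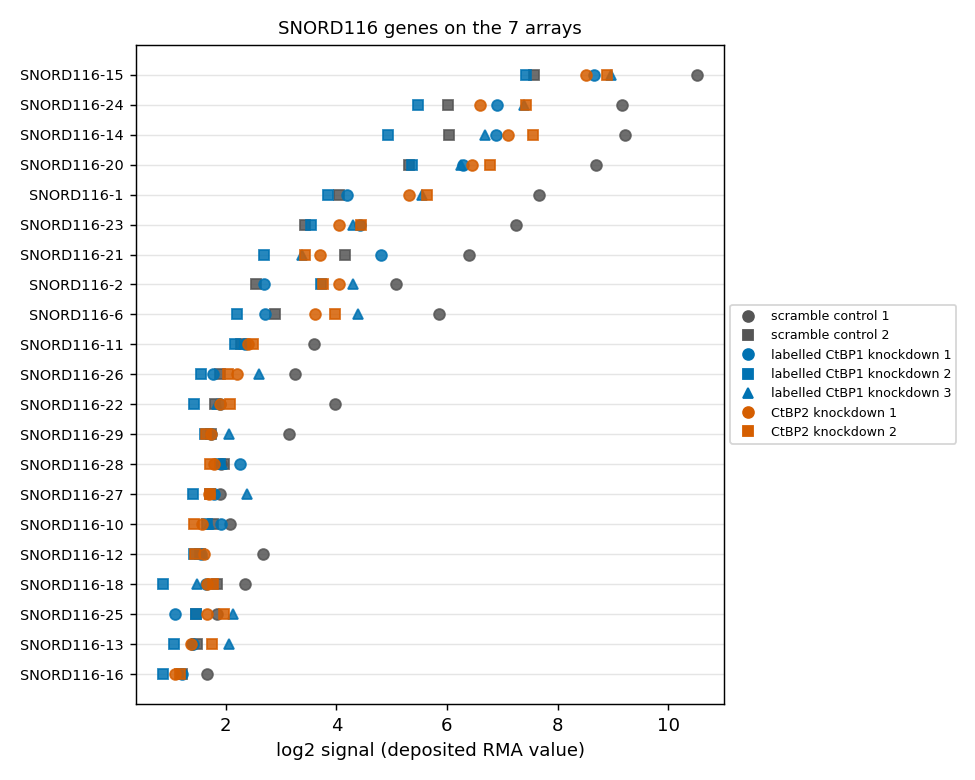
Log2 signal (horizontal axis) of the 21 SNORD116 genes, 1 row a gene and 1 point for each of the 7 arrays, ordered by mean signal. The dark circle of scramble control 1 lies to the right of the other arrays in 17 of 21 rows, as in SNORD116-15 at 10.52, and the remaining 6 arrays overlap.

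The arrays labelled CtBP1 knockdown overlapped the scramble arrays for 190 of the 219 genes. The median differences were -0.14 for RNU, -0.21 for SCARNA, -0.15 for SNORA and -0.17 for SNORD, and 69 of 219 genes had a positive difference, beside 49.2% of all genes. The 3 arrays lay above both controls for 11 genes (2 RNU, 1 SCARNA, 5 SNORA, 3 SNORD) and below for 18, beside 6.76% and 7.59% of all genes. Limma called 0 genes after adjustment (0.0% of all genes; smallest adjusted p of a member 0.734), and at an unadjusted p under 0.05 3 members were higher and 6 lower, beside 2.87% and 1.92%. The negative medians rested on scramble control 1: without it they were 0.22, 0.07, 0.10 and 0.02. Without scramble control 2, 47 members were called and 85 were under an unadjusted 0.05 (4 higher, 81 lower), in a fit where scramble control 1 was the lone control and 3262 genes of the whole array (18.2%) were called. SNORD14C, within HSPA8, had the smallest p of the SNORD genes that lay below both controls. It read 8.99 and 7.97 in scramble and 7.53, 7.38 and 7.67 in the labelled CtBP1 knockdown (-0.95 ± 0.31), with 7.68 and 8.05 in CtBP2 knockdown. SNORD59B read 2.04 and 2.15, then 1.36, 1.43 and 1.96, then 2.22 and 2.35, below both controls in the labelled CtBP1 knockdown (-0.51 ± 0.20) and above them in CtBP2 knockdown. SNORD116-18 (-0.77 ± 0.27), SNORD115-38 (-0.70 ± 0.29), SNORA75 (-0.75 ± 0.33) and SNORA70C (-0.19 ± 0.11) were also below both controls. SNORD52, within SNHG32, read 2.39 and 2.53, then 2.69 on all 3 arrays, then 2.96 and 3.26, so both knockdown groups lay above scramble. SNORD56B (0.28 ± 0.16), SNORD102 (0.24 ± 0.14), SNORA30 (0.23 ± 0.13) and SNORA36C (0.26 ± 0.17) were above both controls in the labelled CtBP1 knockdown by little.

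The knockdown groups were also set against each other, a comparison whose differences do not use the control arrays, although their spread enters the standard errors and p-values. Over all genes, 1395 were under an unadjusted 0.05 with all 7 arrays and 2552 without scramble control 1. The medians were 0.88 for RNU, 0.34 for SCARNA, 0.15 for SNORA and 0.11 for SNORD, and 142 of 219 genes were higher in CtBP2 knockdown, beside 46.8% of all genes. Both CtBP2 knockdown arrays exceeded all 3 others for 77 genes and lay below them for 28, beside 15.8% and 16.2% of all genes. At an unadjusted p under 0.05 45 members were higher and 1 lower, beside 5.31% and 2.46%, and limma called 0 genes after adjustment (0.0% of all genes; smallest adjusted p of a member 0.129). All 7 U4 and U5 genes were above the arrays labelled CtBP1 knockdown, with a median of 2.11, and RNU4-2 (2.34 ± 0.32) and RNU5B-1 (2.11 ± 0.27) followed RNU4-1 in size of p. SNORD50A, SNORD34 and SNORD79 again had the smallest p of the SNORD genes, at 2.09 ± 0.33, 2.31 ± 0.37 and 1.35 ± 0.23. SNORA7B (1.32 ± 0.23), SNORA5A (0.78 ± 0.14), SNORA65 (1.57 ± 0.30) and SNORA24 (2.52 ± 0.52) led the SNORA genes, and SNORA50A, at -0.93 ± 0.32, was the one member under an unadjusted 0.05 that was lower. SNORD4B, within RPL23A, read 5.77, 6.47 and 6.06 in the labelled CtBP1 knockdown and 5.08 and 5.50 in CtBP2 knockdown (-0.81 ± 0.48), with 6.64 and 5.08 in scramble. SNORA70B (-0.51 ± 0.26), SNORA51 (-0.39 ± 0.18), SNORD116-28 (-0.28 ± 0.15), SNORD116-10 (-0.27 ± 0.15) and SNORD113-4 (-0.27 ± 0.17) were lower without overlap too. Without CtBP2 knockdown 2 the 46 members under an unadjusted 0.05 became 20, all higher.

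The differences also depended on how bright a gene was. With all genes split into 4 equal bands of mean signal, CtBP2 knockdown minus scramble had medians of -0.16, -0.10, 0.19 and 0.30 from the dimmest to the brightest band over all genes, and of -0.18, 0.25, 0.26 and 0.40 over the 70, 62, 50 and 37 members in them. Over all genes this order with brightness depended on the scaling and on scramble control 1. After renewed quantile normalization the 4 medians were -0.01, 0.05, 0.12 and 0.09, with median centring the -0.10 turned to 0.05, and without scramble control 1 the 2 brighter bands were at 0.01 and -0.06, where the members were at 0.83 and 1.22. Against the arrays labelled CtBP1 knockdown the medians were -0.06, -0.02, 0.05 and 0.09 over all genes and -0.10, 0.21, 0.54 and 0.83 over the members. After renewed quantile normalization these were 0.01, 0.04, 0.02 and -0.03 over all genes and -0.03, 0.26, 0.48 and 0.67 over the members. In the dimmest band the members therefore lay near all genes. In the upper 3 they lay above them, for the first comparison with both controls in use. The gap was small in the 2 brightest bands of the first comparison. It was larger in the second, whose differences do not use the controls. Between the 2 controls the medians were larger in size: scramble control 1 minus scramble control 2 had values of 0.19, 0.16, -0.38 and -0.73 over all genes and 0.18, 0.38, 0.86 and 1.48 over the members. In the brightest band 36 of 37 members were higher on scramble control 1, against 592 of 4490 genes. The small RNAs thus stood out on scramble control 1 in the direction opposite to other bright genes. Against scramble control 1 alone, the CtBP2 knockdown difference is lower than with both controls for those 36 members and higher for most bright genes. The place of the bright members above all genes in the first comparison therefore depends on which control is used. Medians by band without scramble control 2 are not given here. What sets scramble control 1 apart, and the part of its narrower spread of signals in these differences, were not tested. On how the RNA was extracted the sources differ, a silica column kit in one place and TRIzol in another, and do not say which array had which.

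**Figure D5:**
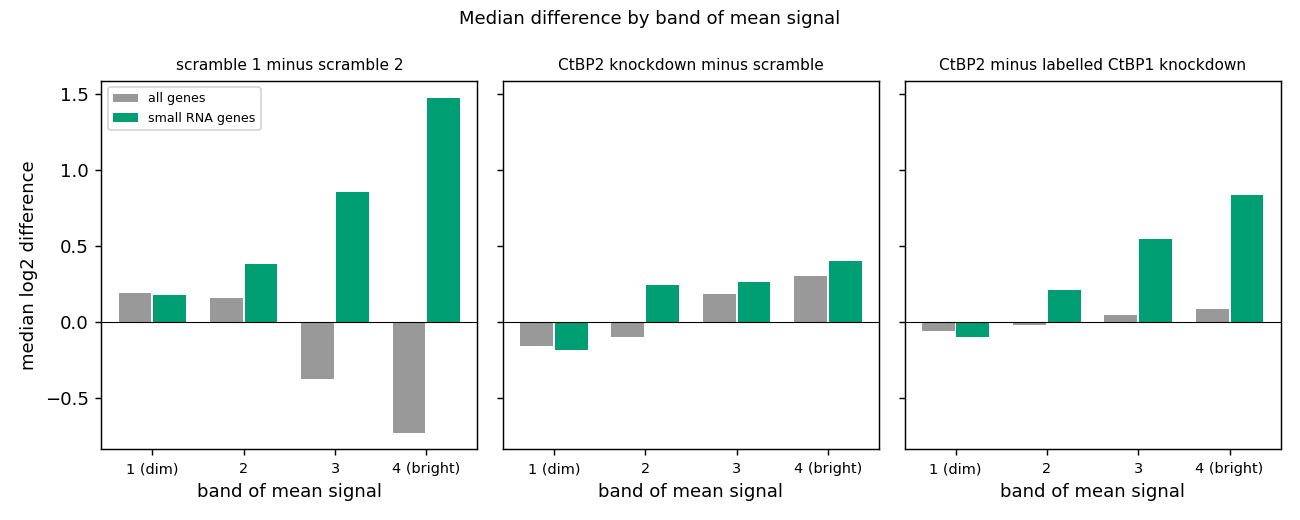
Bars give the median log2 difference (vertical axis) by band of mean signal (horizontal axis), over all genes in grey and over the small RNA genes in green, for 3 comparisons. In the brightest band the controls differ by -0.73 over all genes and 1.48 over the small RNAs, and CtBP2 knockdown exceeds the labelled CtBP1 knockdown by 0.09 and 0.83.

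A single host gene could be assigned by position to 189 of the 219 members, and 94 of them lay in 1 of 71 hosts that were themselves measured. In CtBP2 knockdown against scramble the member and its host were both higher in 51 cases and both lower in 7, the member was lower and the host higher in 32, and the reverse held in 4. As most hosts were higher, the 51 do not by themselves show a link. Across the 94 members, which are not independent, the Pearson correlation with the host's difference was 0.12 and the Spearman correlation 0.25. The median difference was 0.12 over these members and 0.36 over the hosts. Over all genes in the 2 brighter bands of signal the medians were 0.19 and 0.30, and these rested on scramble control 1. Host medians without that array are not given here. Some pairs went opposite ways: RPL27A, a ribosomal protein gene, was higher by 2.02 ± 0.32 while its SNORA3B was at -0.67, and MRPL3, of the mitochondrial ribosome, was higher by 1.55 ± 0.47 while its SNORA58 was at -0.27. In others the small RNA exceeded the host: POR differed by 0.65 ± 0.25 and RPL12 by 0.35 ± 0.32, below SNORA14A and SNORA65. NCL, the gene of nucleolin, differed by 0.84 ± 0.28, and of its 3 members SNORA75 was at 0.60 ± 0.37. Of 15 non-coding host transcripts on a list, 3 were measured: EPB41L4A-AS1 (0.53 ± 0.24) and SNHG17 (0.78 ± 0.30) lay above both controls, and ZFAS1 was at 0.01 ± 0.11. Hosts were assigned by position alone, since the strands of the members were not in the tables used.

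Genes for the proteins that bind, make and transport these RNAs were taken from lists, and limma called 0 of them in CtBP2 knockdown against scramble. Of 12 Sm and Lsm proteins measured, which form the ring around the small nuclear RNAs, 12 had a positive difference (median 0.92), 9 lay above both controls and 8 were higher at an unadjusted p under 0.05. Without scramble control 1 the median was 0.56 with 11 of 12 positive. LSM7 read 2.67 and 2.92 in scramble, 3.09, 3.09 and 3.16 in the labelled CtBP1 knockdown and 3.61 and 3.39 in CtBP2 knockdown (0.70 ± 0.15), with no overlap between the groups, and LSM6 (1.06 ± 0.28, 0.63 without scramble control 1) and LSM2 (1.00 ± 0.30, 0.55 without it) were also above both controls. Of 29 snRNP-specific proteins 26 were positive (median 0.50), 11 above and 2 below both controls, among them SNRPC of the U1 particle (0.93 ± 0.20) and SART1 (0.85 ± 0.18) and TXNL4A (1.09 ± 0.37) of the tri-snRNP. Of 17 proteins of export and SMN-dependent assembly 15 were positive (median 0.31), with 7 above and 1 below, and of 22 proteins of snRNA transcription and 3′ processing 14 (median 0.22), with 6 above and 1 below, INTS8 of the Integrator complex at 0.89 ± 0.25. At an unadjusted p under 0.05 these last 3 lists held 4, 4 and 3 genes that were higher and 0 that were lower, beside 7.19% of all genes higher, and 12.3% and 13.2% in the 2 brighter bands of signal, where the medians were 0.19 and 0.30. These 3 medians rested on scramble control 1: without it they were 0.09 (15 of 29 positive), 0.0003 (9 of 17) and -0.11 (8 of 22). For the counts outside the controls, 19.3% of all genes lay above both and 21.7% below. In the 2 brighter bands 31.7% and 31.3% lay above, and 9.51% and 8.91% below. The snRNP-specific list (37.9% above) and the list for snRNA transcription and 3′ processing (27.3%) were near those bands.

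Of 17 snoRNP proteins and assembly factors measured, 15 were positive (median 0.60). Of the 17, 8 lay above and 2 below both controls, beside 19.3% and 21.7% of all genes. At an unadjusted p under 0.05 in the limma fit 3 were higher and 1 lower, beside 7.19% and 2.98%. Without scramble control 1 the median was 0.05 with 9 of 17 positive. NOP10, a core H/ACA protein, read 5.57 and 6.65 in scramble, 6.47, 6.53 and 6.88 in the labelled CtBP1 knockdown and 7.62 and 8.003 in CtBP2 knockdown (1.70 ± 0.37). Both CtBP2 knockdown arrays were above all others, scramble control 1 was the lowest, and without it the difference was 1.16. SHQ1, an H/ACA assembly chaperone, lay below both controls in CtBP2 knockdown (-0.52 ± 0.15). The 4 Cajal body genes measured had a median of -0.02, each with groups that overlapped the controls, and COIL, which encodes coilin, was at -0.04 ± 0.20. Of 7 minor spliceosome proteins 5 were positive (median 0.14). The signs of these last medians depended on the scaling, at 0.13 for the Cajal body genes after median centring and -0.04 for the minor spliceosome proteins after renewed quantile normalization, and the Cajal body median was 0.22 without scramble control 2. RNPC3, a protein that bridges U11 and U12, read 4.68 and 5.43 in scramble, 6.21, 5.96 and 5.98 in the labelled CtBP1 knockdown and 4.97 and 4.59 in CtBP2 knockdown. It was therefore highest in the labelled CtBP1 knockdown, by 1.00 ± 0.25 against scramble (limma adjusted p = 0.734).

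Other short structured RNAs outside the 4 classes were looked up as well. Of 8 measured, 5 had a positive difference from scramble in CtBP2 knockdown (median 0.36), beside 47.3% of all genes, and 2 lay above both controls, beside 19.3%. The median was 0.15 with 4 of 8 positive after renewed quantile normalization, 0.83 without scramble control 1 and -0.18 without scramble control 2. RMRP, the RNA of RNase MRP, read 8.09 and 6.87 in scramble, 6.66, 7.24 and 7.74 in the labelled CtBP1 knockdown and 8.49 and 8.74 in CtBP2 knockdown. VTRNA1-1, a vault RNA, read 7.20 and 3.43, then 2.59, 3.27 and 3.92, then 7.03 and 7.92. Both were high on scramble control 1 and on the CtBP2 knockdown arrays, and VTRNA1-1 was lower on the other 4 arrays by over 3 log2 units. TERC differed from scramble by 1.27 in CtBP2 knockdown, by 0.99 without scramble control 1 and by 1.54 without scramble control 2. RN7SK, the RNA that restrains P-TEFb, had overlapping groups, at 11.89 and 11.37, then 11.51, 11.73 and 11.57, then 11.59 and 11.65.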

How the data were processed

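Gene expression was profiled on 7 single-colour arrays. What the authors deposited is 1 log2 signal for each transcript cluster and array; Expression Console with RMA is named in the submitters' processing notes, without a version. RMA corrects background, equalises probe distributions across arrays and summarises probes. The deposited values still differed in spread between arrays, as given above for scramble control 1. The build behind the platform annotation is not given in the sources used here. Groups and replicate numbers were read from the sample titles.

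Of 33297 clusters, 19181 carry exactly 1 gene symbol in the platform annotation and 2055 carry several. The former gave 17958 genes, each by its brightest cluster. All 219 members matched RefSeq (GRCh38.p14) by Entrez identifier, and updated symbols changed no membership. Signals near the low end may hold mainly background, and no dim gene was removed. A host is the single RefSeq gene that spans a member, whatever its strand.

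Limma 3.58.1 in R 4.3.3 (lmFit, default eBayes) was fitted with 3 group means to all 7 arrays (4 residual degrees of freedom). Two-sided p-values were adjusted by Benjamini-Hochberg over all genes, at 0.05. Errors after ± are standard errors of this fit. Groups do not overlap where every array of one lies above every array of the other. The fit was tested on simulated data with independent normal noise and no shift of a whole array, unlike these data. By comparison, 27% to 33% of changes of 1 log2 unit and 65% to 72% of changes of 2 passed the threshold. There were 3 to 9 false calls. With so few arrays the precision is limited.

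The members and lists were chosen with earlier results of these data known. The genes named are those past the threshold, all RNU and SCARNA genes, SNORD13, and per comparison and direction up to 4 SNORD and 4 SNORA genes with the smallest p among those whose groups do not overlap. Hosts of these, the imprinted families, and up to 3 genes a protein list with the smallest p in CtBP2 knockdown and 2 in the labelled CtBP1 knockdown were added. The remaining members of GAS5, RPL13A, SNHG5 and SNHG16, SNORA36A, SNORD116-15, SNORD116-23 and SNORD116-24 were chosen after their values were seen. RN7SK was named outside these rules. The grouping of the U4 and U5 genes was not among the sets planned beforehand.

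Alternatives were renewed quantile normalization, median centring, leaving out dim genes (mean under the 25th percentile), the mean of a gene's clusters, updated symbols, array weights, a block for the replicate number, a mean-variance trend, robust eBayes, only the 2 groups compared, and leaving out each array, where a group left with 1 array borrows the spread of the rest. The reported fit already uses updated symbols, so that setting repeats it. Leaving out genes with identical values on 2 or more arrays (55 members), which can understate a group's spread, was added after seeing the data.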

Additional observations from a re-analysis of the deposited data

How the results depend on the processing

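RNU4-1 kept its direction in all 18 alternatives, and the count of members called in CtBP2 knockdown against scramble was 1 in the fit reported and 0 with renewed quantile normalization, median centring, array weights, robust eBayes, only the 2 groups compared and the replicate block (RNU4-1 adjusted p with the block 0.554). It ranged from 0 to 45 when 1 array was left out, the 45 in the fit without scramble control 2, where 22.0% of all genes were called. Same-numbered arrays showed no shared deviation (correlations of -0.35 to 0.10). In a group of 2 arrays the deviations mirror each other, so this check cannot exclude that the numbers pair the samples. The replicate block changed the call of no other named gene and moved no other count of members by over 1.5 times. Over all genes, those under an unadjusted 0.05 fell with the block from 861 to 436 in the labelled CtBP1 knockdown against scramble and from 1395 to 896 between the knockdowns. In CtBP2 knockdown against scramble they were 10.2% of all genes in the fit reported, 9.20% with median centring and 10.8% with a mean-variance trend. The members under an unadjusted p of 0.05 in this comparison numbered 47 with median centring and 49 with a mean-variance trend (31 in the fit reported), and 16 to 80 with 1 array left out. In the labelled CtBP1 knockdown they numbered 5 with only the 2 groups compared and 5 to 85 with 1 array left out, and 0 to 47 members were then called. Between the knockdowns array weights gave 12 members called and 73 under an unadjusted 0.05 (20 to 59 with 1 array left out), beside 1.51% and 17.5% of all genes with array weights. Median centring moved the median of all genes in CtBP2 knockdown against scramble from -0.02 to 0.13, and by construction it moves every gene alike.

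With dim genes left out the SNORD median was 0.25 in CtBP2 knockdown against scramble and 0.49 against the labelled CtBP1 knockdown, where the SNORA median was 0.41, or 0.45 with tied genes left out. With 1 array left out the medians against scramble ran, in the labelled CtBP1 knockdown, from -0.27 to 0.22 (RNU), -0.42 to 0.016 (SNORD), -0.36 to 0.10 (SNORA) and -0.41 to 0.070 (SCARNA), and in CtBP2 knockdown from 0.56 to 1.32, -0.20 to 0.14, -0.057 to 0.38 and 0.05 to 0.40. Between the knockdowns they ran from 0.76 to 1.34, 0.03 to 0.21, 0.06 to 0.32 and 0.17 to 0.45.

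Differences from scramble in CtBP2 knockdown that changed sign are given next. With renewed quantile normalization RNU105B was 0.038, SCARNA10 -0.0091, SCARNA11 0.0022 and SCARNA22 -0.011, and with median centring RNU105B was 0.069, SCARNA14 0.044 and SCARNA16 0.11. With 1 array left out the ranges were -0.86 to 0.089 for RNU105C, -0.0052 to 0.28 for RNU12, -0.11 to 1.32 for RNU4ATAC, -0.53 to 0.15 for RNU6ATAC, -0.52 to 1.02 for SCARNA10, -0.66 to 0.33 for SCARNA11, -0.25 to 0.045 for SCARNA14, -0.58 to 0.51 for SCARNA16 and -0.17 to 0.60 for SCARNA9L. The cause was not tested. The mean of clusters and the fit without dim genes or without tied genes reversed none of the named values they held. Updated symbols repeat the reported fit, so they could reverse none. Signals near the low end limit what the dim SNORD115 genes can show.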
